A study of Rattus norvegicus with 8 samples.

Results

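A set of 10 genes of the interleukin-1 (IL-1), tumour necrosis factor (TNF) and NF-kB response was examined in injured rat dorsal root ganglia (DRG), the ganglia that hold the cell bodies of sensory neurons. They were the cytokine genes Il1a, Il1b, Il18 and Tnf, the protease gene Casp1, the receptor genes Il1r1 and Tnfrsf1a, the NF-kB genes Nfkb1 and Nfkbia, and the adhesion molecule gene Icam1. The members were the probe sets for which the array annotation gave 1 of these symbols and no other. Each gene had 1 such probe set, so 10 of the 28826 probe sets, or 10 of the 14497 named genes, were described.

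RNA came from the ipsilateral L5 DRG of adult male Wistar rats on day 14 after transection of the L5 spinal nerve, and was hybridised to Affymetrix Rat Gene 1.0 ST arrays. The HDACI group (4 arrays) received MS-275, an inhibitor of class I histone deacetylases, at 30 nmol/day into the spinal intrathecal space from an osmotic pump that was started before the injury. The vehicle group (4 arrays) received DMSO in saline in the same way by the study's methods, although the treatment field of its samples repeats the MS-275 text, so that its identity rests on the sample titles and the methods. Both groups were therefore injured and carried a pump, the study's methods describe the arrays as biological replicates, and an uninjured group was not analysed here.

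IL-1 and TNF are cytokines made by macrophages, glia and other cells of an injured nerve, and both are known to sensitise sensory neurons. Il1b and Il18 encode inactive precursors that caspase-1 cuts inside the inflammasome, whereas TNF is released from the cell surface by a protease. Their receptors signal to the IkappaB kinase complex, which marks IkappaB proteins for destruction and frees NF-kB dimers to enter the nucleus, where they raise the transcription of adhesion molecules, cytokines and their own inhibitors.

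NF-kB dimers bind kappaB motifs, and the stretch around the start site of each gene was therefore read for them in the RefSeq promoters of the rat build GRCr8, which run from 250 bases before the start site to 50 bases after it. A promoter was found for all 10 genes, and 1 was read per gene. In Il1r1 and Casp1 it lay well inside the annotated span of the gene. The matches and distances hold for the start site that was read, and other start sites were not searched. The motif GGAANTTCC, which is its own reverse complement and overlaps the longer kappaB consensus, was found in 3 of them (Icam1, Nfkbia and Nfkb1), against 0.872% of all 33469 promoters of the same length. The kappaB consensus, searched on both strands, was found in 3 of them (Il1r1, Nfkbia and Nfkb1), against 7.51% of all promoters. Because the motifs were picked after these sequences had been seen, the shares are descriptions and no enrichment is read from them. The 3 promoters with GGAANTTCC and that of Il1b, the member with the greatest difference between groups and no match to either motif, are shown with the motif letters in capitals.
Icam1 (chr8:27829595-27829894, + strand, GRCr8): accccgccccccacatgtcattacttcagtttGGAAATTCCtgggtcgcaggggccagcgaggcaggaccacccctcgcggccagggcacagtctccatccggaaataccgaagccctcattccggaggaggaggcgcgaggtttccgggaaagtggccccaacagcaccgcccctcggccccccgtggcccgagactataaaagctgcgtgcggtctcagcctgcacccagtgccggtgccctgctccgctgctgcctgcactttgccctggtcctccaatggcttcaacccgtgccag
Nfkbia (chr6:78597023-78597322, - strand, GRCr8): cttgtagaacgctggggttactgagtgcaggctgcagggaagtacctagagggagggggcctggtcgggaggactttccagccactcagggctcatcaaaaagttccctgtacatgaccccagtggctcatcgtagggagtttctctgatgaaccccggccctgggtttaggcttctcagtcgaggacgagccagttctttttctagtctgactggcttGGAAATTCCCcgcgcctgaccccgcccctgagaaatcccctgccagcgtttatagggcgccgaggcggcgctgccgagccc
Nfkb1 (chr2:226805413-226805712, - strand, GRCr8): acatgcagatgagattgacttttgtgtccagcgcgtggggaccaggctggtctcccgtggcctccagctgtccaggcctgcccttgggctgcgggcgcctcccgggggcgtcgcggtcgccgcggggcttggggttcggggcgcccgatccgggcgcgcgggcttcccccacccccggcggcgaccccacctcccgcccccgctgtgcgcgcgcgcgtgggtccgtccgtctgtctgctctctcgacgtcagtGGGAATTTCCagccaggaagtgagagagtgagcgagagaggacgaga
Il1b (chr3:137036532-137036831, - strand, GRCr8): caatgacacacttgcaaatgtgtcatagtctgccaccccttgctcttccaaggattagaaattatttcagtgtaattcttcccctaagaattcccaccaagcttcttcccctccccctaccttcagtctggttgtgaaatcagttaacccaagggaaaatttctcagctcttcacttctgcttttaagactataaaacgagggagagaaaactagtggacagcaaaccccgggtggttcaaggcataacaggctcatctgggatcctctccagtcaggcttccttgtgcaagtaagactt
The match began 218 bases before the start site in Icam1 and 31 bases before it in Nfkbia, whereas in Nfkb1 the consensus began 3 bases after the start site. In Il1r1 the consensus lay on the opposite strand, 135 bases before the start site, and the consensus of Nfkbia lay on the opposite strand as well. A match says that these letters are present, and binding at them was not measured.

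The deposited values had been normalised to nearly 1 distribution per array, so that near-equal array medians were set in advance. The median log2 signal of an array lay between 8.13 and 8.16, and the correlation between any pair of arrays between 0.991 and 0.997. Array weights, estimated from the spread around the group means, differed more. They ran from 0.52 (vehicle replicate 1) and 0.58 (HDACI replicate 4) to 2.37 (HDACI replicate 2). The 9 measured markers of sensory neurons lay between the 50.4 (Trpv1) and the 99.7 (Tubb3) percentile of signal, and the 9 nerve injury genes between the 70.1 (Vip) and the 99.7 (Npy) percentile, so that none of either list was among the dim probe sets of these ganglia. Among the members, the cytokine genes had lower signals, at the 33.5 (Il1a), 38.6 (Tnf), 46.5 (Il1b) and 47.1 (Il18) percentile. Il1a thus lay close to the 30th percentile used as a filter for dim probe sets. The other members lay between the 54.6 (Casp1) and the 88.9 (Tnfrsf1a) percentile. Skeletal muscle genes set some vehicle arrays apart. All 10 muscle markers that were measured had lower means in HDACI DRG, with a median difference of -1.90. All 10 had an unadjusted p under 0.05 by limma, against 3.55% of all probe sets, and 0 passed after adjustment. Their mean level, each gene centred on its mean over the 8 arrays, was -1.27 to -0.85 in the HDACI arrays, against 2.71, 1.70, -1.20 and 0.70 in vehicle replicates 1 to 4.

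No gene of the response passed the test for a difference between HDACI and vehicle DRG. After Benjamini-Hochberg adjustment over all probe sets, limma called 0 of the 10 members and 0 of the 28826 probe sets (0%) at 0.05, and the adjusted p was 1.0 for every member. Without adjustment, 1022 probe sets passed 0.05, and 2 of these were members, Il1b and Icam1. That is 2 of 10 members against 3.55% of all probe sets in either direction, or 1.61% counting higher values alone. The differences were small: from -0.01 for Nfkbia to 0.32 for Il1b on the log2 scale, or 0.994-fold to 1.25-fold. In 9 of the 10 members the HDACI mean was above the vehicle mean, against 53.3% of all probe sets, and the median difference was 0.11 over the members and 0.01 over all probe sets. The members share arrays and are not independent of one another. In whole ganglia, fewer cells of a type and less RNA per cell cannot be told apart.

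**Figure D1:**
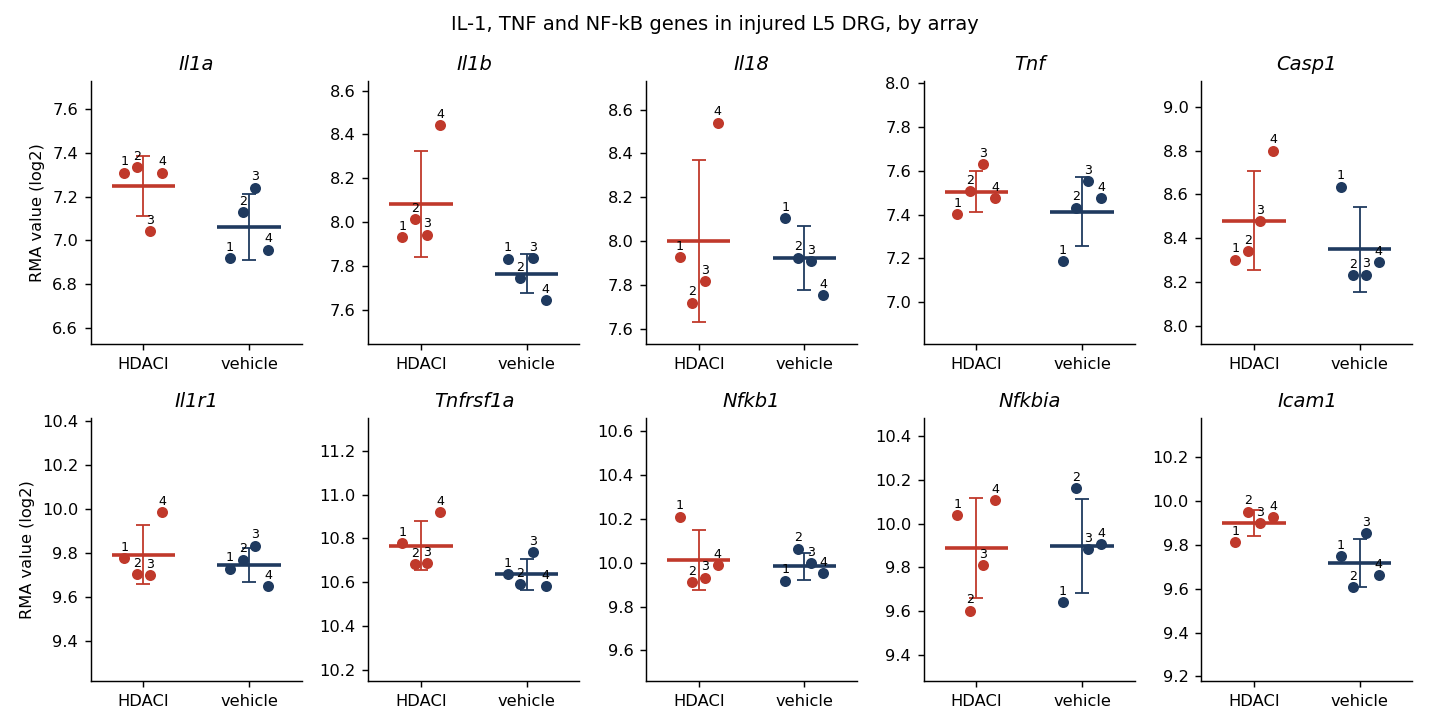
Log2 signal of the 10 genes in each array, with HDACI replicates (red) left of vehicle replicates (blue) and the group mean ± SD beside the points (n = 4 each); each panel has its own log2 axis. The Il1b points of the HDACI arrays all lie above those of the vehicle arrays, and those of the other 9 genes overlap.

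Among the ligands, Il1b, which encodes the precursor of IL-1beta, differed most. Its log2 signal was 7.93, 8.01, 7.94 and 8.44 in HDACI DRG, against 7.83, 7.75, 7.84 and 7.65 in vehicle DRG. All 4 HDACI arrays were above all 4 vehicle arrays, and HDACI replicate 4 stood well above the rest. Il1b was the only 1 of the 10 members whose groups did not overlap with HDACI above, which 1.01% of all probe sets also showed. The difference was 0.32 ± 0.11 (SE, 95% interval 0.06 to 0.57), or 1.25-fold, with an unadjusted p of 0.0202 by limma. Without HDACI replicate 4 it was 0.20.

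Il1a encodes IL-1alpha, which acts as a precursor and as an alarm signal of dying cells. Its log2 signal was 7.31, 7.33, 7.04 and 7.31 in HDACI DRG, against 6.92, 7.13, 7.24 and 6.96 in vehicle DRG. Of the HDACI arrays 3 lay above all vehicle arrays and close to each other, and the remaining 1, replicate 3, lay within the vehicle range. The difference was 0.19 ± 0.09 (95% interval -0.02 to 0.39), with an unadjusted p of 0.0724 by limma, and it was 0.26 without HDACI replicate 3.

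Il18 encodes another precursor cut by caspase-1, an inducer of interferon-gamma. Its signal was 7.93, 7.72, 7.82 and 8.54 in HDACI DRG, against 8.11, 7.93, 7.91 and 7.75 in vehicle DRG. The groups overlapped, and the higher HDACI mean rested on replicate 4, since the other HDACI arrays averaged below the vehicle arrays. The difference was 0.08 ± 0.17 (95% interval -0.30 to 0.46) with all arrays and -0.10 without HDACI replicate 4.

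Tnf, the gene of TNF itself, gave 7.40, 7.51, 7.63 and 7.48 in HDACI DRG and 7.19, 7.43, 7.55 and 7.48 in vehicle DRG. The arrays of both groups were interleaved apart from the low vehicle replicate 1. The difference was 0.09 ± 0.08 (95% interval -0.10 to 0.28), and it was 0.02 without vehicle replicate 1.

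Casp1 encodes caspase-1, the protease that activates IL-1beta and IL-18. Its signal was 8.30, 8.34, 8.48 and 8.80 in HDACI DRG, against 8.64, 8.23, 8.23 and 8.29 in vehicle DRG. HDACI replicate 4 was the highest array and vehicle replicate 1 came next. The difference was 0.13 ± 0.13 (95% interval -0.16 to 0.42), and it ranged from 0.03 without HDACI replicate 4 to 0.23 without vehicle replicate 1.

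Both receptor genes had overlapping groups. Il1r1, the signalling receptor of IL-1, gave 9.78, 9.71, 9.70 and 9.98 in HDACI DRG, against 9.73, 9.77, 9.83 and 9.65 in vehicle DRG. Only HDACI replicate 4 lay above the vehicle range. The difference was 0.05 ± 0.07 (95% interval -0.12 to 0.21), and -0.02 without that array. Tnfrsf1a, the TNF receptor that carries a death domain, gave 10.78, 10.68, 10.69 and 10.92 in HDACI DRG, against 10.64, 10.59, 10.74 and 10.58 in vehicle DRG. HDACI replicates 1 and 4 were above every vehicle array, and the other HDACI replicates fell inside the vehicle range. The difference was 0.13 ± 0.07 (95% interval -0.02 to 0.28), with an unadjusted p of 0.0787 by limma, and it was 0.08 without HDACI replicate 4.

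The NF-kB genes had the smallest differences of the 10. Nfkb1, which encodes the p105 precursor of the p50 subunit, gave 10.21, 9.91, 9.93 and 9.99 in HDACI DRG, against 9.92, 10.06, 9.998 and 9.95 in vehicle DRG. HDACI replicate 1 was above all other arrays, and the other HDACI replicates included the lowest array of the set. The difference was 0.03 ± 0.07 (95% interval -0.14 to 0.19), and -0.04 without HDACI replicate 1. Nfkbia encodes IkappaBalpha, the inhibitor that NF-kB itself induces, and gave 10.04, 9.60, 9.81 and 10.11 in HDACI DRG, against 9.64, 10.16, 9.88 and 9.91 in vehicle DRG. The groups covered the same range. The difference was -0.01 ± 0.13 (95% interval -0.31 to 0.29), and its sign depended on which array was included.

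Icam1, an adhesion molecule for leukocytes and a target of NF-kB in endothelial and other cells, had the smallest p of the members. Its signal was 9.81, 9.95, 9.90 and 9.93 in HDACI DRG, against 9.75, 9.61, 9.86 and 9.66 in vehicle DRG. Of the HDACI arrays 3 lay above all vehicle arrays, while HDACI replicate 1 lay below vehicle replicate 3. The difference was 0.18 ± 0.06 (95% interval 0.04 to 0.32), or 1.13-fold, with an unadjusted p of 0.0187 by limma. Leaving out each array in turn gave 0.14 to 0.23. Without vehicle replicates 1 and 2, the arrays highest in muscle genes, the Icam1 difference was 0.14, that of Il1b was 0.34, and 8 of the 10 members were higher in HDACI DRG (48.1% of all probe sets), with 0 of the 10 at an unadjusted p under 0.05. That fit kept 2 vehicle arrays and did not remove the muscle difference. All 10 muscle markers were still lower in HDACI DRG, with a median of -0.72.

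**Figure D2:**
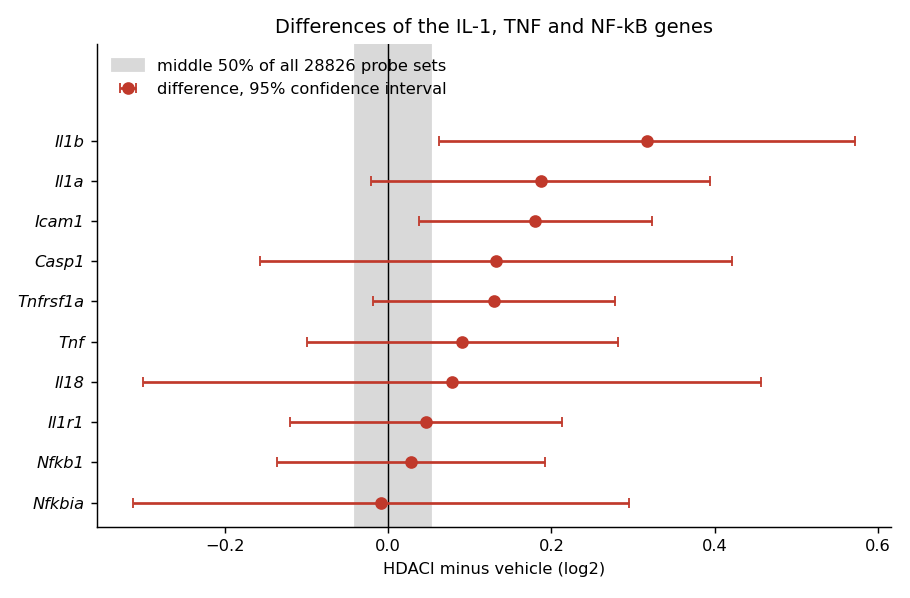
Difference in log2 signal, HDACI minus vehicle, for each of the 10 genes, as point estimate and 95% interval from limma (n = 4 each). The intervals of Il1b and Icam1 lie above 0, from 0.06 to 0.57 and from 0.04 to 0.32, and those of the other 8 genes include 0.

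HDACI replicate 4 carried the highest value of 5 of the 10 members: Il1b, Il18, Casp1, Il1r1 and Tnfrsf1a. Centred on each gene's mean over the 8 arrays, the members averaged 0.04, -0.03, -0.01 and 0.24 in HDACI replicates 1 to 4, against -0.07, -0.04, 0.00 and -0.12 in vehicle replicates 1 to 4. Icam1, Il1a, Tnf and the NF-kB genes did not have their highest value in that array. Without it, 7 of the 10 members were higher in HDACI DRG, against 55.8% of all probe sets, and the median difference was 0.06. Il1b and Icam1 had unadjusted p values of 0.0126 and 0.0422 by limma in that fit.

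**Figure D3:**
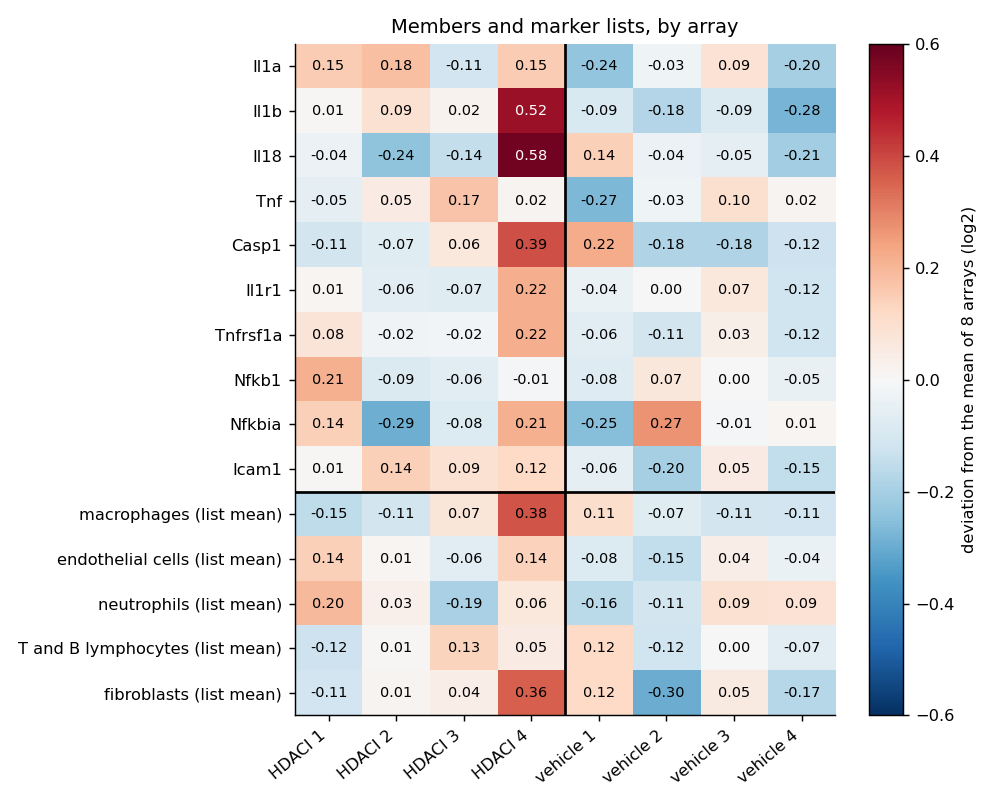
Deviation of each gene's log2 signal from its mean over the 8 arrays, with HDACI arrays left of vehicle arrays and the value printed in each cell. HDACI replicate 4 averages 0.24 over the 10 genes, and the other arrays lie between -0.12 and 0.04.

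The mean level of the macrophage markers was also highest in HDACI replicate 4, although Aif1, Lyz2 and Cx3cr1 had their highest value in other arrays. Of 14 markers measured of 14 listed, 13 were higher in HDACI DRG, with a median difference of 0.09 and 0 at an unadjusted p under 0.05. Fcgr1a, an Fc receptor, differed by 0.16 ± 0.10 and Tyrobp, a signalling adaptor of myeloid cells, by 0.20 ± 0.16. The mean centred level of the macrophage markers was -0.15 to 0.38 in the HDACI arrays, with 0.38 in replicate 4, against -0.11 to 0.11 in the vehicle arrays. Without HDACI replicate 4 the count was 8 of 14 (55.8% of all probe sets) and the median 0.01. With array weights it was 9 of 14 (55% of all probe sets) and the median 0.04. Of the endothelial markers, whose cells are a known site of Icam1, 7 of 9 were higher, with a median of 0.12 and a mean level of -0.06 to 0.14 in HDACI arrays, against -0.15 to 0.04 in vehicle arrays. Egfl7, a factor secreted by endothelium, differed by 0.17 ± 0.07 and Tie1, an endothelial receptor kinase, by 0.20 ± 0.09. Without HDACI replicate 4, 9 of the 9 endothelial markers were higher, with a median of 0.09. Fibroblast markers had 6 of 6 higher, with a median of 0.16 and a mean level of 0.36 in HDACI replicate 4. Without that array the count was 4 of 6 and the median 0.07, and without vehicle replicate 2 they were 5 of 6 and 0.08. Neutrophil markers had 7 of 9 higher (median 0.04), but 4 of 9 without HDACI replicate 1 or without vehicle replicate 1, with medians of -0.00366 and -0.00534. Lymphocyte markers had 8 of 10 higher (median 0.03), but 5 of 10 without vehicle replicate 2 (median -0.00711), and 3 of the 9 neutrophil markers were below the 30th percentile of signal. Markers of myelinating Schwann cells went the other way in HDACI replicate 4, with a mean level of -0.31 in that array and -0.02 to 0.17 in the other HDACI arrays, against -0.05 to 0.08 in the vehicle arrays. With all arrays 2 of 4 were higher (median -0.01), and without HDACI replicate 4 all 4 were (median 0.10), 1 of them at an unadjusted p under 0.05. The part of these cells in the differences of Il1b, Casp1 and Icam1 was not tested.

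Correlations between members were taken on the deviations from their group means. For the 5 genes chosen because HDACI replicate 4 was their highest array, a choice that itself raises the correlation, the 10 pairs lay between 0.46 and 0.94, with 0.94 for Il1r1 and Tnfrsf1a and 0.92 for Il1b and Il18. Without HDACI replicate 4 the same pairs lay between -0.34 and 0.83, and only the pair of Il1r1 and Tnfrsf1a was above 0.7. Nfkb1 and Nfkbia had a correlation of 0.69, and Icam1 ran against both, at -0.54 with Nfkb1 and -0.53 with Nfkbia. These are descriptions over 8 arrays, and all the genes were measured on the same arrays.

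The genes whose pattern was most like that of Icam1 were taken from the 14487 other named genes, by the correlation of deviations from the group means over 8 arrays. They were Hrh1, the histamine H1 receptor (0.98), Omd, a small leucine-rich proteoglycan (0.98), Gstt1, a glutathione transferase (0.97), Trpc6, a cation channel (0.97), and Erap1, an aminopeptidase that trims peptides for antigen presentation (0.97). With so many genes and 8 arrays, high values at the top of such a ranking are common.

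Beyond the 10 members, the lists of pathway genes had small differences that mostly ran the same way when all arrays counted alike. With array weights, 13 of 18 IL-1, 11 of 14 TNF, 8 of 14 NF-kB and 13 of 18 NF-kB target genes were higher in HDACI DRG. The share of all probe sets was 55% in that fit, and 55.8% without HDACI replicate 4. In the list of IL-1 and inflammasome genes, 18 of 21 were measured, and 14 were higher and 4 lower in HDACI DRG, with a median of 0.07 and 1 at an unadjusted p under 0.05. Over all probe sets 53.3% were higher and 3.55% passed that p, and in the 4 lists, in the order given here, 1 of 18, 1 of 14, 0 of 14 and 2 of 18 genes did, counts of 0 to 2 from which nothing particular to the lists is read. In the IL-1 list the gene was Irak4, the kinase that joins the IL-1 receptor complex through MyD88. Irak4 gave 9.001, 8.95, 8.90 and 9.06 in HDACI DRG, against 8.88, 8.85, 8.81 and 8.81 in vehicle DRG, so that every HDACI array was above every vehicle array. The difference was 0.14 ± 0.05, with an unadjusted p of 0.0190 by limma, and lay between 0.11 and 0.17 when single arrays were left out.

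Other genes of the IL-1 list gave values that were larger or more scattered. Il1rn, the IL-1 receptor antagonist, gave 7.51, 7.89, 7.49 and 9.38 in HDACI DRG, against 7.46, 7.46, 7.23 and 7.45 in vehicle DRG. All HDACI arrays were above all vehicle arrays, but replicate 4 was far above the other HDACI arrays, and the difference of 0.67 ± 0.37 was 0.23 without it. Irak3, a kinase-like protein that restrains IL-1 receptor signalling, differed by 0.19 ± 0.09 (0.11 without vehicle replicate 4), and Myd88, the adaptor of the receptor, by 0.13 ± 0.07 (0.08 without HDACI replicate 4). Both had overlapping groups. Without HDACI replicate 4, 13 of the 18 genes were higher, with a median of 0.06.

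In the TNF list, 14 of 16 genes were measured, with 12 higher, 2 lower and a median of 0.05. Casp8, the protease that TNF receptors use to start apoptosis, was the 1 gene with an unadjusted p under 0.05. Its signal was 8.12, 8.19, 8.33 and 8.53 in HDACI DRG, against 8.24, 7.90, 8.09 and 7.84 in vehicle DRG. Vehicle replicate 1 lay among the HDACI arrays and the other vehicle arrays lay below them. The difference was 0.27 ± 0.11, with an unadjusted p of 0.0374 by limma. Ltb, the lymphotoxin beta gene, differed by 0.16 ± 0.08 (0.09 without vehicle replicate 1), and Tnfrsf1b, the receptor of TNF on immune and endothelial cells, by 0.18 ± 0.12, which was 0.07 without HDACI replicate 4. Traf3, an adaptor of the TNF receptor family, differed by 0.08 ± 0.05 (0.05 without HDACI replicate 1). Without HDACI replicate 4, 8 of the 14 genes were higher (55.8% of all probe sets), with a median of 0.01 and 0 at an unadjusted p under 0.05.

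The NF-kB list of subunits, inhibitors and kinases had 14 of 17 genes measured, with 13 higher, 1 lower, a median of 0.03 and 0 at an unadjusted p under 0.05. Rela, the p65 subunit, differed by 0.06 ± 0.04, Nfkbie, a further IkappaB inhibitor, by 0.09 ± 0.06, and Ikbkg, the regulatory subunit of the IkappaB kinase, by 0.06 ± 0.05 (0.03 without HDACI replicate 4). Tab1, a partner of the kinase TAK1, was the 1 gene with a lower mean, at -0.07 ± 0.06 (-0.03 without HDACI replicate 4 and -0.12 without HDACI replicate 2). Every difference in the list lay between -0.07 and 0.09, the narrowest range of the 4 lists, and 10 of the 14 were higher without HDACI replicate 4.

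Among NF-kB targets, 18 of 20 were measured, with 15 higher, 3 lower and a median of 0.07, and 1 in each direction had an unadjusted p under 0.05. Sod2, the mitochondrial superoxide dismutase, was the lower 1 and had the smallest p of the 4 lists (0.00909, limma, unadjusted). Its signal was 11.69, 11.68, 11.88 and 11.79 in HDACI DRG, against 11.85, 12.05, 12.03 and 11.99 in vehicle DRG. HDACI replicate 3 was just above vehicle replicate 1 and all other HDACI arrays were below the vehicle range. The difference was -0.22 ± 0.07, and lay between -0.26 and -0.19 when single arrays were left out.

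Sele, which encodes the endothelial adhesion molecule E-selectin, was the higher 1. It gave 7.51, 7.34, 7.27 and 7.59 in HDACI DRG, against 7.34, 7.15, 7.25 and 7.10 in vehicle DRG, and the groups overlapped. The difference was 0.22 ± 0.08, with an unadjusted p of 0.0291 by limma. Nos2, the inducible nitric oxide synthase, differed by 0.40 ± 0.19 (0.20 without HDACI replicate 4), and Ier3, an early response gene, by 0.25 ± 0.12 (0.14 without it). When single arrays were left out, 11 (without HDACI replicate 1) to 16 of the 18 targets were higher, and the lowest median was 0.03 (without vehicle replicate 2). Without HDACI replicate 4 the count was 14, the median 0.11, and Sod2 was the 1 gene at an unadjusted p under 0.05.

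HDACI replicate 4 was also highest for 2 targets chosen after their values were seen. Ptgs2, the inducible cyclooxygenase, gave 7.69, 7.68, 7.65 and 9.01 in HDACI DRG, against 7.70, 7.24, 7.61 and 7.07 in vehicle DRG. The other HDACI arrays lay within the vehicle range, and the difference of 0.60 ± 0.30 was 0.27 without replicate 4. Mmp9, a matrix protease of neutrophils and macrophages, gave 8.57, 9.33, 7.64 and 12.07 in HDACI DRG, against 9.04, 7.65, 7.91 and 8.57 in vehicle DRG. Its difference was 1.11 ± 0.83, and 0.22 without that array.

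**Figure D4:**
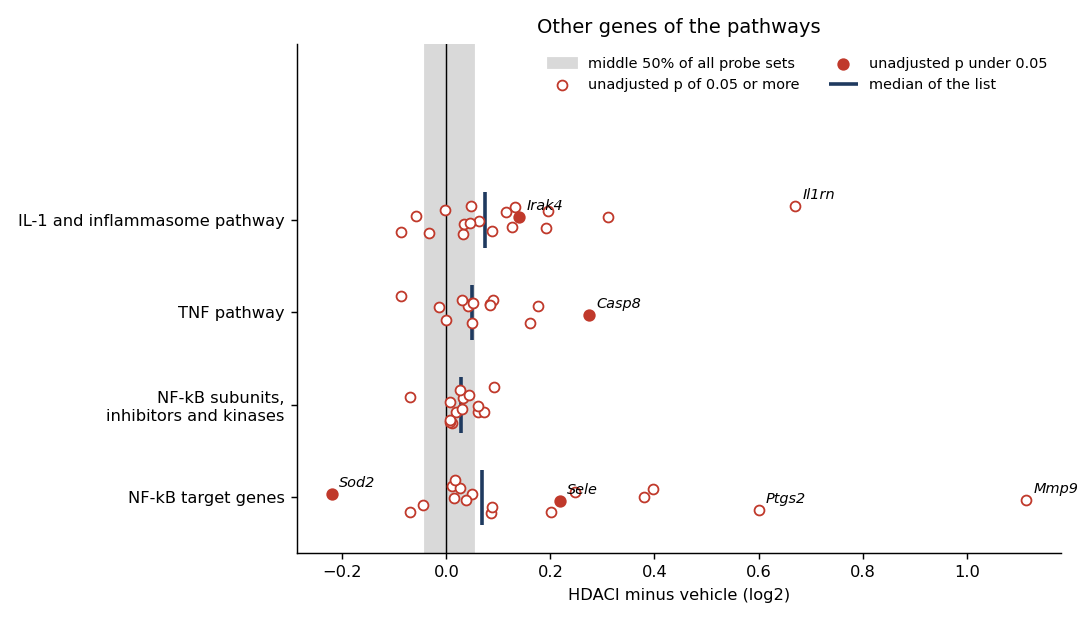
Difference in log2 signal, HDACI minus vehicle, of each measured gene in 4 pathway lists, with 1 point per gene. Medians are 0.07, 0.05, 0.03 and 0.07 in the lists of IL-1 and inflammasome, TNF, NF-kB and NF-kB target genes, and Mmp9 at 1.11 has the highest value.

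**Figure D5:**
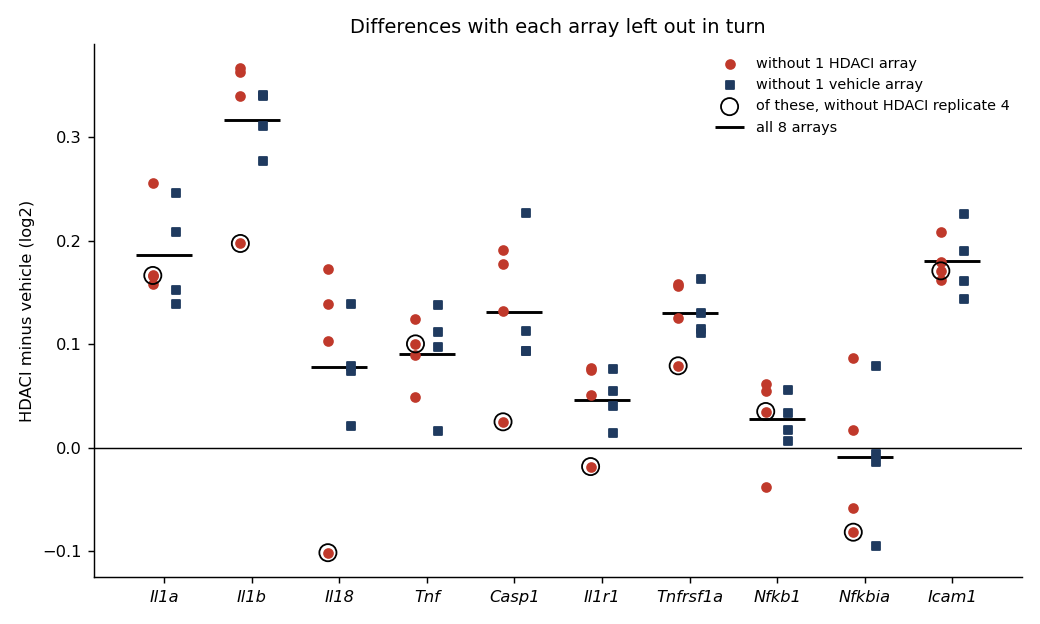
Difference in log2 signal, HDACI minus vehicle, with all 8 arrays and with each array left out in turn, for the 10 genes. Il1b stays between 0.20 and 0.37 and Icam1 between 0.14 and 0.23, whereas Il18 spans -0.10 to 0.17.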

How the data were processed

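Total RNA of 4 HDACI and 4 vehicle DRG was measured on 1-colour arrays. The authors deposited log2 values per probe set after robust multi-array averaging (RMA) of all arrays with the oligo package, and its version is not given in the sources used here. After RMA the arrays have nearly 1 distribution, and differences of dim probe sets are compressed. Precision is limited by the number of arrays. Groups came from the sample titles, since the treatment field is the same for all 8 samples.

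Probe sets were named from the platform annotation: 15209 had 1 symbol, 306 several and 13311 none. Where a gene had several probe sets, the 1 with the highest mean over all arrays was used. The deposited values were tested unchanged with limma 3.58.1 (lmFit and eBayes, two-sided) in R 4.3.3, as HDACI minus vehicle without a filter, and p-values were adjusted by Benjamini-Hochberg over all 28826 probe sets. The code was tested on simulated data. The members and lists were chosen with earlier results of these data known, so counts over them are descriptions. All members were described, and in each pathway list the 4 genes with the smallest p were named. Alternatives were a replicate block, array weights, trended and robust variance, a filter at the 30th percentile of signal, probe sets with 1 symbol only, another centring or quantile step, the mean over probe sets, and arrays left out. The counts of the pathway lists with each array left out were added after seeing the data.

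Marker lists not given in the results had 1 of 9 higher in HDACI DRG for sensory neurons (median -0.08), 2 of 5 for satellite glia and 2 of 9 for nerve injury genes (median -0.07). Of the 9 nerve injury genes 1, Npy, had an unadjusted p under 0.05 (-0.13, p of 0.0241 by limma), against 3.55% of all probe sets. The satellite glia count was 4 of 5 without HDACI replicate 4, without vehicle replicate 4 or with array weights. The sensory neuron markers had their highest mean centred level, 0.39, in vehicle replicate 4. Without that array 4 of 9 were higher (median -0.02), and without vehicle replicate 1 it was 0 of 9 (median -0.15). Promoters were those of RefSeq for GRCr8. Both motifs were chosen with these sequences in view. Pathway genes without a matching single-symbol probe set, such as Nlrp3, Rel, Relb and Tnfaip3, were not analysed here.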

Additional observations from a re-analysis of the deposited data

Results flagged for a closer look

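Dixon's criterion for a group of 4 (the gap to the nearest array over the range) marked 6 of 56 groups tested. Chance marks about 1 in 20 of independent groups picked without sight of their values. These genes shared arrays and were partly picked by their values, so no excess is read from the count. Among the members, Il1b was 8.44 in HDACI replicate 4, with the nearest HDACI array at 8.01. Il1a was 7.04 in HDACI replicate 3, with the nearest at 7.31. Casp1 was 8.64 in vehicle replicate 1, with the nearest vehicle array at 8.29. Among the other pathway genes, Ptgs2 was 9.01 in HDACI replicate 4, with the nearest at 7.69. In vehicle DRG, Il1rn was 7.23 in replicate 3, with the nearest at 7.45, and Nos2 was 7.39 in replicate 1, with the nearest at 7.64.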

How the results depend on the processing

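Under every alternative run, 0 members passed an adjusted p of 0.05 by limma. Over 504 differences of single genes under alternatives, the smallest adjusted p was 0.701. The number of members at an unadjusted p under 0.05, 2 with all arrays, was 1 to 4 when single arrays were left out and 0 without vehicle replicates 1 and 2 (4.8%). It was 1 without HDACI replicate 2 (2.72% of all probe sets in the same fit), vehicle replicate 2 (2.46%) or vehicle replicate 4 (4.64%), 4 without vehicle replicate 3 (3.57%), and 2 with array weights (7.09%) or without vehicle replicate 1 (6.1%). The number of members higher in HDACI DRG was 7 to 10 with single arrays left out, against 50.1% to 55.8% of all probe sets. With array weights it was 6 of 10, near the 55% of all probe sets in that fit. The median of the members was 0.06 to 0.16. The sign turned with array weights for Il1r1 (-0.0125), Il18 (-0.0323) and Nfkb1 (-0.00708), and without vehicle replicates 1 and 2 for Tnf (-0.0112). With single arrays left out, it turned for Il1r1 (-0.0181 to 0.0776, negative without HDACI replicate 4), Il18 (-0.10 to 0.17, negative without the same array), Nfkb1 (-0.0383 to 0.0615, negative without HDACI replicate 1) and Nfkbia (-0.0948 to 0.0867, positive without HDACI replicates 2 or 3 or vehicle replicate 2). The cause of these shifts was not tested. Between same-numbered arrays of the 2 groups, deviations from the group means had correlations of -0.04, 0.01, 0.01 and -0.28. Each value compares 1 array with 1 array, so these correlations cannot decide whether the arrays were paired. The sample titles give only a number. With a replicate block, the differences of Il1b (0.32) and Icam1 (0.18) were as before, both had an unadjusted p of 0.046 by limma, and no adjusted call changed. Under the block the unadjusted p by limma was 0.0751 for Casp8 and 0.0238 for Nos2, so that the TNF list had 0 genes under 0.05, the NF-kB targets 3 higher and 1 lower, and the endothelial markers 0. With 4 arrays per group, differences near 0.1 were within the 95% intervals of most members.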
